A study of Canis lupus familiaris with 6 samples.

Results

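The receptors and ligands of the lambda interferons were examined together with the receptors of the other interferon types in canine mammary tumor cells. The genes were IL28RA, IL10RB, IL28B, IL29, IFNAR1, IFNAR2, IFNGR1 and IFNGR2. Every probe that carries one of these names on the array and is not a control was taken, which gave 10 probes for 8 genes among 43603 probes with 35582 distinct names. IL10RB and IFNGR2 had 2 probes each and the others 1, and each probe was printed as 1 spot per array. All 8 genes were found in the RefSeq table of dog genes (UU_Cfam_GSD_1.0), in which IL28RA is called IFNLR1, IL28B is called IFNL3 and IL29 is called IFNL1.

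RNA was compared on 6 Agilent canine arrays that take up 2 RNA samples, one in Cy5 (red) and one in Cy3 (green). The cells were established lines, namely P114 from an anaplastic cancer, CMT-U27 from a simple carcinoma and CMT-U309 from a spindle cell mammary tumor, grown either alone (monoculture) or below transwell inserts that held myeloid-derived suppressor cells (MDSCs), which had been sorted from blood that healthy dogs gave (co-culture). Sample descriptions give a co-culture of 72 h or longer, and the methods give a shorter one. Each line was run on 2 arrays with the dyes exchanged, called here the Cy5 array and the Cy3 array after the dye of the co-culture RNA, so that n was 3 lines. All lines grew in the same serum-containing medium, and each condition of a line is one RNA preparation as far as the descriptions say. P-values of the ratios between conditions therefore rest on the spread between the 3 lines, moderated in limma by that of other probes. Those of the levels rest on the model given with them.

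Interferons are cytokines that bind paired receptor chains at the cell surface. The lambda (type III) interferons, among them IL-28B and IL-29, bind IL-28RA, the chain that is specific to them and is best known from epithelial cells, together with IL-10RB, a broadly expressed chain that also serves the receptors for IL-10 and IL-22. Type I interferons bind IFNAR1 with IFNAR2, and interferon gamma (type II) binds IFNGR1 with IFNGR2. All of these receptors signal through Janus kinases and STAT proteins to interferon-stimulated genes.

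All values of the members below come from hybridization to the 10 oligonucleotide probes, of which not all are printed. Shown are the probes of IL28RA, IL28B and IL29, the dimmer IL10RB probe, and the IFNGR2 probe that differed most regularly between the conditions. They are given 5′ to 3′ as in the scanner output, all in lower case since the whole of each 60-base probe hybridizes and no part of it was singled out.
IL28RA: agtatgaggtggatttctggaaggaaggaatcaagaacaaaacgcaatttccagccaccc
IL10RB (dimmer probe): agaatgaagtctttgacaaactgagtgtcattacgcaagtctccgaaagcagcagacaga
IL28B: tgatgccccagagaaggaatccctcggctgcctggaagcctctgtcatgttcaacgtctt
IL29: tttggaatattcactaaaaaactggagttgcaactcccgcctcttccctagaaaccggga
IFNGR2 (dimmer probe): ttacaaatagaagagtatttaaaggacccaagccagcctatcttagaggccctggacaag
The longest run of bases shared by any pair of the 10 probes was 9 bases. On canFam2, the build of the array's annotation, the IL28RA probe lies on chromosome 2 (78332868 to 78334700, plus strand). That interval of 1833 bases is longer than the 60-base probe, as for a probe that crosses an intron. The same holds for IL28B (chromosome 1, 116864026 to 116864168), IL29 (chromosome 1, 116814602 to 116814926, minus strand) and the dimmer IFNGR2 probe (chromosome 31, 31061975 to 31066647). The IL10RB probes lie 170 bases apart on chromosome 31, the brighter at 30933279 to 30933338 and the dimmer at 30933049 to 30933108. The remaining probes have intervals of 60 bases, with IFNAR2 at chromosome 31, 30907424 to 30907483, IFNAR1 at chromosome 31, 30989415 to 30989474, the brighter IFNGR2 probe at chromosome 31, 31067179 to 31067238, and IFNGR1 at chromosome 1, 32698285 to 32698344 on the minus strand. Probes of 4 genes therefore share 159.8 kb of chromosome 31, and in the RefSeq table IFNAR2, IL10RB, IFNAR1 and IFNGR2 follow each other in that order. IL28RA is followed there by IL22RA1, a chain of the IL-22 receptor.

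Between 53.0% and 81.0% of probes were well above background in a channel, a flag that the scanner software sets from the signal of the spot and the spread of the background. The log2 ratios of the arrays of a dye-swap, both turned to co-culture over monoculture, correlated across probes at -0.39 for P114, 0.26 for CMT-U27 and -0.09 for CMT-U309. Arrays of different lines with co-culture RNA in Cy3 correlated at 0.47 to 0.61, and those with it in Cy5 at -0.22 to 0.40. Epithelial markers set the lines apart, with a scaled EPCAM signal of 43920 in CMT-U27 against 579.3 in P114 and 102.3 in CMT-U309, and so did the mesenchymal marker VIM with 1171 against 119000 and 76940. Of 8 epithelial markers tested, all but KRT14 were highest in CMT-U27, where KRT14 had 2127 against 3718 and 6141. Of 9 mesenchymal markers tested, all but THY1 (943.8 against 652 and 1021) and PDGFRB (108.9 against 209.4 and 103.8) were lowest in CMT-U27. Of 12 myeloid markers tested, 0 passed the thresholds of the methods between co-culture and monoculture. The flag was set in 12 of 12 channels for 3 of these markers, CD68, ITGB2 and S100A8. For 2 of them, ITGAM, which encodes CD11b, and SPI1, it was set in 0 of 12 channels, and the others lay between.

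The lambda interferon receptor chain IL28RA was read close to the background, and its partner IL10RB was read far above it. Over the 12 channels the unscaled mean signal of the IL28RA spot was 0.908 to 1.28 times the background that was subtracted from it, while that of the dimmer IL10RB probe was 6.59 to 77.7 times and that of the brighter one 27.1 to 716.8 times. The IL28RA probe carried the flag in the Cy3 co-culture channel of CMT-U27 and the Cy3 monoculture channel of CMT-U309 and in no other, and 4 of its 12 processed signals were surrogates, values that the software puts in where the signal does not exceed the background error. Both IL10RB probes were well above background in all 12 channels. Of the 120 channel readings of the 10 probes, 106 were well above background, and 10 of the 14 others were from IL28RA.

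In P114 the IL28RA spot had an unscaled signal of 48.9 over a background of 43.9 in the co-culture channel of the Cy5 array and of 37.8 over 37.4 in its monoculture channel. On the Cy3 array of P114 these were 41.0 over 36.7 for co-culture and 40.6 over 44.7 for monoculture, the latter below its background. In CMT-U27 they were 43.6 over 43.5 for co-culture and 42.3 over 40.8 for monoculture on the Cy5 array. Both of these CMT-U27 readings were surrogates, and the ratio in the deposited table was accordingly set to 0. On the Cy3 array of CMT-U27 the signals were 42.3 over 33.6 for co-culture and 51.4 over 44.5 for monoculture. In CMT-U309 they were 53.6 over 44.4 and 48.8 over 38.1 on the Cy5 array, then 41.4 over 36.8 and 51.2 over 46.7 on the Cy3 array, each for co-culture and then monoculture. In every channel the spot lay within 10.72 units above or 4.10 units below its background. The ratios of processed signals that follow were formed from differences of this size, after the software had adjusted them between dyes.

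**Figure D1:**
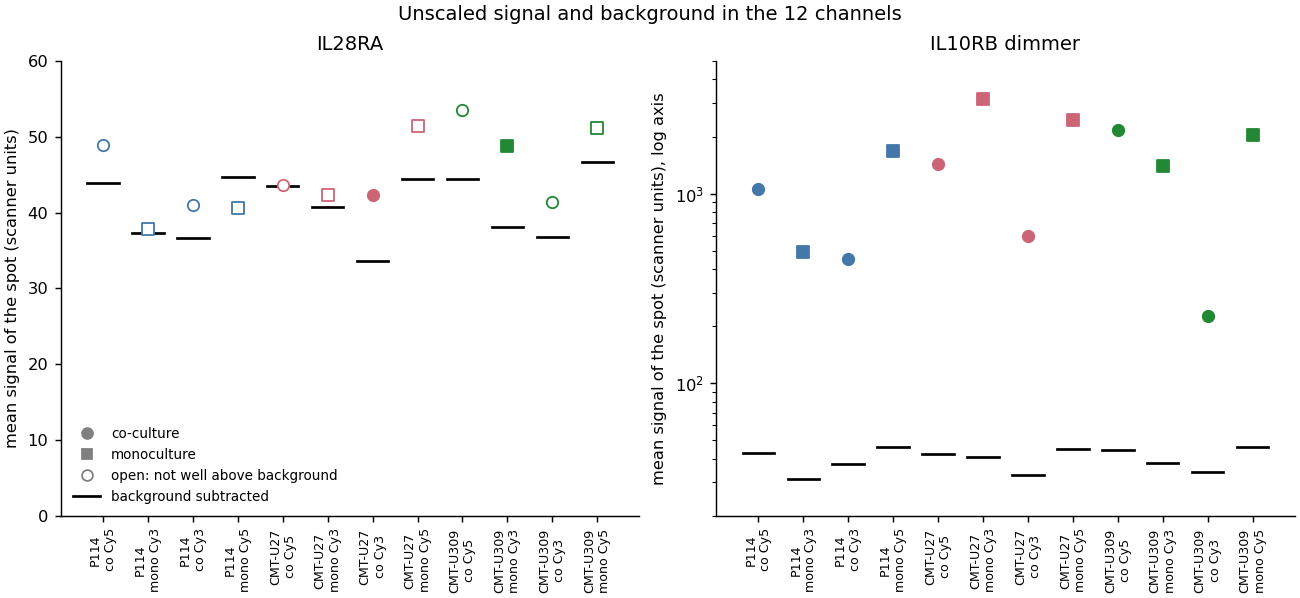
Unscaled mean signal of the IL28RA spot (left, linear axis) and of the dimmer IL10RB spot (right, log axis) in the 12 channels, named by line, condition (co, co-culture; mono, monoculture) and dye. Circles are co-culture, squares are monoculture, filled symbols are well above background and black bars are the background subtracted; 2 of 12 IL28RA readings are filled, against 12 of 12 for IL10RB.

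IL28RA was the only one of the 10 probes to pass the thresholds of the study's methods, which ask for more than a 2-fold change and for p below 0.05 without adjustment. These thresholds called 1.03% of the 40699 probes tested higher in co-culture and 0.192% lower. Probes were tested if their scaled signal exceeded 10 in any channel. IL28RA met this only in co-culture, on the Cy3 arrays of P114 (13.9), CMT-U27 (32.2) and CMT-U309 (21.4). Its highest monoculture signal was 8.28. Without this filter its log2 fold change was the same (unadjusted p = 0.00336, adjusted p = 0.443 from limma). The log2 ratio of IL28RA, co-culture over monoculture, was 0.16 on the Cy5 array and 1.996 on the Cy3 array of P114. It was 1.59 and 1.96 in CMT-U27, and -0.40 and 2.53 in CMT-U309, in the same order. The ratio was thus above 0 on 5 of 6 arrays, and on the 3 Cy3 arrays it was 1.96 or higher. On both arrays of P114 the monoculture signal was a surrogate, and on the Cy5 array of CMT-U27 both signals were. On the Cy3 array of CMT-U309, 41.4 over 36.8 for co-culture and 51.2 over 46.7 for monoculture became processed signals of 19.3 and 3.56. On that of CMT-U27, 42.3 over 33.6 and 51.4 over 44.5 became 31.3 and 8.21. How much of these ratios comes from the adjustment between dyes was not tested. The mean log2 ratio of IL28RA over lines was 1.31 (SD 0.41, n = 3; SE 0.35 from limma; 95% interval 0.52 to 2.10), a 2.47-fold difference, with an unadjusted p of 0.00431 and an adjusted p of 0.498 from limma with Benjamini-Hochberg adjustment. No probe on the array passed an adjusted p of 0.05 in limma, although 9.95% had an unadjusted p under 0.05. An exact sign-flip test over 3 lines cannot give a two-sided p below 0.25. In bulk RNA like this, fewer cells of a kind and less RNA per cell cannot be told apart.

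The IL28RA call was lost under another processing and without either of 2 single arrays. Normexp background correction, an added offset of 50 and loess in place of median scaling, changed together, gave a log2 fold change of 0.07, and the thresholds then called 3 probes higher on the whole array. An offset of this size pulls the ratio of a probe with signals this low towards 0 by construction, and the changes were not tried one by one. Without the Cy3 array of P114 the value was 1.00 (unadjusted p = 0.0998, adjusted p = 1 from limma), and without that of CMT-U309 it was 0.82 (unadjusted p = 0.115, adjusted p = 0.773 from limma). The deposited ratios gave 1.02. Among probes well above background in 2 or fewer of 12 channels, as IL28RA was, 5.27% were called higher, and among those well above it in all 12 channels 0.126% were. Both shares are over probes that the intensity filter kept. How much of the IL28RA value comes from signal near background was not tested.

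The orientation of the dyes moved with the IL28RA ratio. Its mean was 2.16 over the 3 Cy3 arrays and 0.45 over the 3 Cy5 arrays. Both arrays of a line carry the same pair of RNA samples. The difference, Cy3 array minus Cy5 array, was 2.93 in CMT-U309, 1.83 in P114 and 0.37 in CMT-U27, with a mean of 1.71 (SE 0.72, unadjusted p = 0.0296 and adjusted p = 0.122 from limma). Of the 10 probes 3 had an unadjusted p under 0.05 in this comparison, IL28RA, the dimmer IL10RB probe (-0.36, SE 0.15) and the brighter IFNGR2 probe (0.40, SE 0.14), against 29.5% of all probes tested. After adjustment 0 of the 10 and 13.6% of all probes passed 0.05 in limma. Probes well above background in 2 or fewer channels had a median difference of 0.69, and those well above it in all 12 had one of 0.03.

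IL10RB, the partner chain, had ratios near 0 at its brighter probe. Its log2 ratios were 0.08 and 0.15 in P114, 0.07 and 0.42 in CMT-U27, and -0.33 and -0.09 in CMT-U309, on the Cy5 and then the Cy3 array. Their mean over lines was 0.05 (SD 0.24, n = 3), smaller than the spread between lines, with a 95% interval from -0.23 to 0.32. The dimmer probe gave 0.08 and -0.18 in P114, 0.68 and 0.50 in CMT-U27, and 0.53 and -0.12 in CMT-U309, and its mean was 0.25 (SD 0.32, n = 3; interval -0.06 to 0.55). Neither probe passed the test, with adjusted p-values of 0.893 and 0.529 from limma with Benjamini-Hochberg adjustment. Both intervals lie below a log2 fold change of 1. The probes gave the same order of lines for the ratio only in part, since CMT-U27 was highest at both but CMT-U309 was lowest at the brighter and P114 at the dimmer one.

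**Figure D2:**
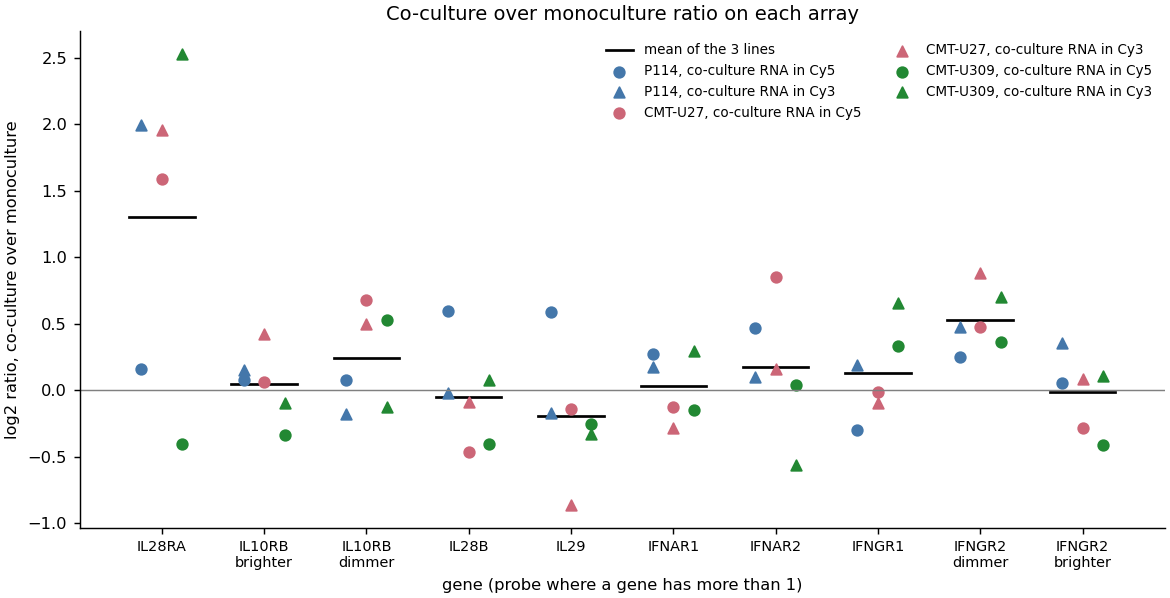
Log2 ratio of co-culture over monoculture on each of the 6 arrays for the 10 probes. Colours are the cell lines, circles are arrays with co-culture RNA in Cy5, triangles those with it in Cy3 and black bars the mean of the 3 lines; IL28RA spans -0.40 to 2.53, while every other ratio lies between -0.86 and 0.88.

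The IL28B and IL29 probes did not differ between the conditions beyond the spread of the lines. The IL28B probe, for a lambda interferon, carried the flag in 12 of 12 channels. Its log2 ratios were 0.60 and -0.02 in P114, -0.47 and -0.08 in CMT-U27, and -0.40 and 0.08 in CMT-U309, with a mean of -0.05 (SD 0.30, n = 3; adjusted p = 0.925 from limma). The IL29 probe, for another lambda interferon, carried the flag in all channels but 1, which was a co-culture one. Its ratios were 0.59 and -0.17 in P114, -0.14 and -0.86 in CMT-U27, and -0.25 and -0.32 in CMT-U309. Only the Cy5 array of P114 was above 0, and the mean was -0.19 (SD 0.36, n = 3; adjusted p = 0.715 from limma). A further probe named IL29L, which is not among the 10, carried it in 12 of 12 too, with a mean log2 ratio of -0.08 (SD 0.08, n = 3). Other probes described as IL-29 but not among the 10 were near background. TC63982 carried the flag in 0 of 12 channels and passed the methods' thresholds, at 1.34 (SD 0.54, n = 3; unadjusted p = 0.00851, adjusted p = 0.498 from limma). Its Cy3 minus Cy5 difference was 1.80. EU409072 carried the flag in 1 co-culture and 3 monoculture channels and stood at -0.46 (SD 0.21, n = 3). These RNAs are from the tumor cell wells, so that the values say nothing of the ligands in the MDSCs.

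The type I receptor chains were read at low signal. The IFNAR1 spot was above the flag in 5 of 6 channels of either condition, and the IFNAR2 spot in all but 1 co-culture channel. IFNAR1 had log2 ratios of 0.27 and 0.17 in P114, -0.13 and -0.28 in CMT-U27, and -0.15 and 0.30 in CMT-U309, with a mean of 0.03 (SD 0.22, n = 3). IFNAR2 had 0.47 and 0.10 in P114, 0.85 and 0.16 in CMT-U27, and 0.04 and -0.56 in CMT-U309, with a mean of 0.18 (SD 0.39, n = 3). The IFNAR2 ratio was lower on the Cy3 array than on the Cy5 array in all 3 lines, and 5 of its 6 ratios were above 0. The adjusted p-values from limma were 0.963 for IFNAR1 and 0.738 for IFNAR2.

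Of the interferon gamma receptor, the ligand-binding chain IFNGR1 was not different between the conditions in the test, while the accessory chain IFNGR2 gave different values at its probes. The IFNGR1 probe carried the flag in 12 of 12 channels and had log2 ratios of -0.30 and 0.19 in P114, -0.01 and -0.10 in CMT-U27, and 0.34 and 0.66 in CMT-U309. Its mean was 0.13 (SD 0.32, n = 3; adjusted p = 0.812 from limma), and CMT-U309 was the line with both arrays above 0. The dimmer IFNGR2 probe had 0.25 and 0.47 in P114, 0.48 and 0.88 in CMT-U27, and 0.36 and 0.70 in CMT-U309. It was the only one of the 10 probes to be higher in co-culture on 6 of 6 arrays, which held for 2.56% of all probes tested and for 4.04% of those well above background in all 12 channels. Its mean of 0.53 (SD 0.16, n = 3; SE 0.13; interval 0.24 to 0.81) is a 1.44-fold difference, under the 2-fold threshold, with an unadjusted p of 0.00219 and an adjusted p of 0.498 from limma. The brighter IFNGR2 probe had 0.06 and 0.36 in P114, -0.28 and 0.09 in CMT-U27, and -0.41 and 0.11 in CMT-U309, with a mean of -0.01 (SD 0.19, n = 3). The intervals of the IFNGR2 probes met only at their ends, since that of the brighter probe ran from -0.27 to 0.25. The difference between the probes was not tested. Averaged over probes by the median, IFNGR2 had a log2 fold change of 0.26 (SE 0.11) and IL10RB one of 0.15 (SE 0.12).

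Over all 10 probes, 7 had a mean above 0 and 3 a mean below 0, and 2 had an unadjusted p under 0.05, IL28RA and the dimmer IFNGR2 probe. The background was 9.95% of all probes tested. Leaving out P114 left IL28RA (1.42, adjusted p = 0.0231), the dimmer IL10RB probe (0.40, adjusted p = 0.0294) and the dimmer IFNGR2 probe (0.61, adjusted p = 0.00649) past the adjusted threshold of limma, as it did 15.7% of all probes. A fit of the 6 arrays with the replicate block, in which both arrays of a dye-swap enter as units, gave adjusted p-values of 0.0360 for IL28RA and 0.00230 for the dimmer IFNGR2 probe, and 7.44% of all probes passed.

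Levels differed between the cell lines for most of the receptors. They are given as the processed signal scaled to a common channel median and averaged over dyes on the log2 scale, and they were compared between lines for each probe on its own, since signals of different probes are not on one scale. A limma model with line and condition was fitted to the 6 RNA samples, in which the co-culture and monoculture of a line stand in as its replicates and 2 residual degrees of freedom remain. Of the 10 probes 8 passed an adjusted p of 0.05 in the F test over lines. Of all probes tested 55% did, and 71.5% of those well above background in all 12 channels, against 6 of the 6 member probes of that kind. By pairs of lines, 5 of the 10 passed between P114 and CMT-U27 (background 41.3%), 4 between P114 and CMT-U309 (background 29.6%) and 7 between CMT-U27 and CMT-U309 (background 46.6%).

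The mean IL10RB signal was highest in CMT-U27 at both probes. The brighter probe had a signal of 12040 in co-culture and 11100 in monoculture of P114, 19310 and 16310 in CMT-U27, and 7436 and 8619 in CMT-U309. The lines did not overlap, and CMT-U27 exceeded P114 by 1.54-fold (adjusted p = 0.00805 from limma) and P114 exceeded CMT-U309 by 1.44-fold (adjusted p = 0.0243). The former call was lost without a variance trend (adjusted p = 0.0704 from limma) and without CMT-U27 co-culture (0.140). The latter was lost with normexp (adjusted p = 0.460 from limma), with quantile normalization (0.209), without a variance trend (0.130) and without CMT-U309 co-culture (0.489), and its log2 difference turned to -0.24 without scaling of the channels (0.208). At the dimmer probe the signals were 1876 and 1940 in P114, 3215 and 2137 in CMT-U27, and 1651 and 1436 in CMT-U309. CMT-U27 exceeded CMT-U309 by 1.70-fold (adjusted p = 0.00355 from limma, and 0.0919 without CMT-U27 co-culture). Its difference from P114 was at the threshold (1.37-fold, adjusted p = 0.0497 from limma) and was lost in 8 of 13 alternatives, with a log2 difference of -0.20 for P114 minus CMT-U27 without CMT-U27 co-culture (adjusted p = 0.525). P114 and CMT-U309 did not pass (adjusted p = 0.198 from limma, and 0.0105 without P114 co-culture).

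The interferon gamma receptor chains also had their highest mean signal in CMT-U27, while the order of P114 and CMT-U309 was not settled. The brighter IFNGR2 probe had a signal of 3409 in co-culture and 2954 in monoculture of P114, 5581 and 5965 in CMT-U27, and 2151 and 2386 in CMT-U309, and CMT-U27 exceeded CMT-U309 by 2.55-fold (adjusted p = 3.1e-05 from limma). The dimmer IFNGR2 probe had 428.7 and 333.1 in P114, 829.2 and 516.8 in CMT-U27, and 384.7 and 265.8 in CMT-U309, with CMT-U27 2.05-fold over CMT-U309 (adjusted p = 0.000374 from limma). P114 exceeded CMT-U309 by 1.40-fold at the brighter probe (adjusted p = 0.0276 from limma), a call lost in 5 of 13 alternatives, and did not pass at the dimmer one (adjusted p = 0.284). Without scaling of the channels the log2 difference turned to -0.29 at the brighter probe (adjusted p = 0.115 from limma) and to -0.53 at the dimmer one, where that reverse direction passed (0.0167). IFNGR1 had 55.8 and 57.9 in P114, 82.2 and 85.4 in CMT-U27, and 52.2 and 36.9 in CMT-U309. CMT-U27 exceeded CMT-U309 by 1.91-fold there (adjusted p = 0.00978 from limma), which was lost without scaling (0.0531) and without the monoculture of CMT-U27 (0.107) or of CMT-U309 (0.191). P114 passed against neither CMT-U27 (adjusted p = 0.0922 from limma) nor CMT-U309 (0.283). Against CMT-U27 it passed with the dye and replicate block on 12 channels (adjusted p = 0.0323 from limma), with normexp (0.0297), among probes well above background throughout (0.0477) and without scaling (0.00542).

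The mean signal of the type I receptor chain IFNAR2 was highest in P114, with a signal of 111.4 in co-culture and 91.5 in monoculture, against 83.3 and 58.6 in CMT-U27 and 42.1 and 50.4 in CMT-U309. P114 exceeded CMT-U309 by 2.19-fold (adjusted p = 0.00649 from limma), and this log2 difference of 1.13 fell to 0.36 without scaling (adjusted p = 0.255) and to 0.80 without CMT-U309 co-culture (0.124). CMT-U27 lay between them and passed against neither (adjusted p = 0.114 and 0.0717 from limma), but with the dye and replicate block on 12 channels it passed against P114 (0.0419) and CMT-U309 (0.0211). With normexp it passed against P114 (adjusted p = 0.0110 from limma), and without P114 co-culture (0.0342), P114 monoculture (0.0329) or CMT-U309 monoculture (0.0390) it passed against CMT-U309. IFNAR1 had 41.8 and 35.7 in P114, 58.3 and 67.2 in CMT-U27, and 47.8 and 45.4 in CMT-U309. Its F test gave an adjusted p of 0.0807, and of its pairs of lines CMT-U27 against P114 passed (1.62-fold, adjusted p = 0.0428 from limma). That call was lost in 8 of 12 alternatives, among them the dye and replicate block (adjusted p = 0.0592 from limma), quantile normalization (0.0556) and each of 5 RNA samples left out (0.0591 to 0.347).

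The IL28B and IL29 probes had a higher signal in CMT-U309 than in CMT-U27. IL28B had a signal of 126.8 in co-culture and 103.6 in monoculture of P114, 82.9 and 100.2 in CMT-U27, and 169.7 and 190.1 in CMT-U309, with CMT-U309 1.97-fold over CMT-U27 (adjusted p = 0.00320 from limma) and 1.57-fold over P114 (adjusted p = 0.0404). The difference from P114 was lost in 4 of 13 alternatives, among them leaving out CMT-U309 co-culture (adjusted p = 0.131 from limma), P114 monoculture (0.173) or CMT-U309 monoculture (0.303). P114 and CMT-U27 did not pass (adjusted p = 0.234 from limma; 0.0351 without P114 monoculture), and their log2 difference turned from 0.33 to -0.13 without scaling. IL29 had 76.2 and 65.9 in P114, 37.6 and 53.2 in CMT-U27, and 70.8 and 86.4 in CMT-U309. CMT-U309 exceeded CMT-U27 by 1.75-fold (adjusted p = 0.0216 from limma), a call lost in 4 of 12 alternatives, among them leaving out CMT-U27 co-culture (0.229), CMT-U309 co-culture (0.0649) or CMT-U309 monoculture (0.143). P114 did not pass against CMT-U309 (adjusted p = 0.702 from limma) or CMT-U27 (0.0544), but passed against CMT-U27 with the dye and replicate block (0.0332), with normexp (0.0256) and without P114 monoculture (0.00851). IL28RA had 10.8 and 5.13 in P114, 11.9 and 3.48 in CMT-U27, and 11.3 and 5.39 in CMT-U309, and no difference between lines was detectable at this signal (adjusted p of the F test 0.830 from limma). Without scaling, the direction of P114 against CMT-U309 also turned for the dimmer IL10RB probe (-0.47, adjusted p = 0.0398 from limma) and IFNGR1 (-0.40).

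**Figure D3:**
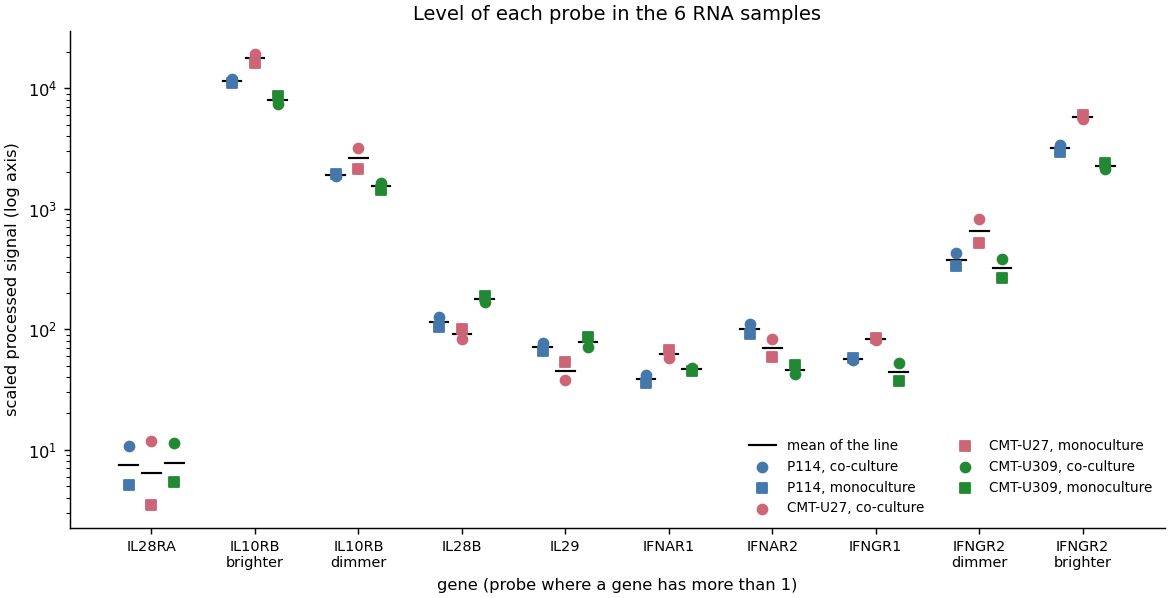
Scaled processed signal (log axis) of the 10 probes in the 6 RNA samples. Colours are the cell lines, circles are co-culture, squares are monoculture and black bars the mean of the line; the mean of CMT-U27 is highest for IL10RB, IFNGR1 and IFNGR2, that of CMT-U309 exceeds that of CMT-U27 for IL28B and IL29, and signals of different probes are not on one scale.

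The genes whose pattern was most like that of the lambda receptor chains were taken from the probes well above background in all 12 channels. Over the 6 arrays the log2 ratio of IL28RA correlated best with those of PKP4 (r = 0.98), MIPOL1 (0.98) and HDDC2 (0.97). The ratio of the brighter IL10RB probe correlated best with those of SH3BP5, ATP9A and GPRC5B (each r = 0.98). Over the 6 RNA samples the level of the brighter IL10RB probe ran most like those of DNAJB11, SOD2 and CLPP (r between 0.99 and 1.00). These are descriptions over 6 points that share lines, arrays and dyes. Between the members, the level of the brighter IL10RB probe correlated with that of the brighter IFNGR2 probe at 0.97, with that of IL28B at -0.91 and with that of IL28RA at -0.08.

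Further genes of the pathway showed little difference between co-culture and monoculture. Of 55 genes tested in the lists of signal transducers, negative regulators, related receptors, related ligands and interferon-stimulated genes, 0 were called higher at the thresholds of the methods and 1 was called lower, with a background of 1.03% and 0.192%. The gene called lower was SOCS3, a feedback inhibitor of cytokine receptors, with a log2 fold change of -1.02 (SE 0.27, n = 3; adjusted p = 0.498 from limma). By line it stood at -1.41 for CMT-U27, -1.20 for CMT-U309 and -0.45 for P114. Its probe carried the flag in 5 of 6 monoculture and 3 of 6 co-culture channels, and its ratio moved with the dyes (Cy3 minus Cy5 array -1.53, adjusted p = 0.0355 from limma). An unadjusted p under 0.05 was found for 4 of the 55 genes and, as background, for 9.95% of all probes.

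The signal transducers were all read well above background in all 12 channels, and 0 of 6 passed the thresholds. STAT2 and IRF9 belong to the complex that carries the type I and lambda signals to the nucleus, and their log2 fold changes were 0.11 (SE 0.14) and 0.06 (SE 0.11). STAT3 stood at -0.06 (SE 0.11) and the kinase JAK1 at -0.01 (SE 0.11), and no probe on the array carried the name TYK2. The median of the transducers was 0.09, against 0.01 over all probes tested.

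Of 34 interferon-stimulated genes listed, 29 were tested, 0 passed the thresholds in either direction and 16 had a mean above 0. Their log2 fold changes ran from -0.21 to 0.56 with a median of 0.01, the same to 2 decimals as over all probes. Among 6 related class II receptors 0 passed. IL10RA, the ligand-binding chain of the IL-10 receptor, stood at 0.04 (SE 0.53) and carried the flag in 1 of 12 channels. IL22RA1 stood at -0.39 (SE 0.34) with 4 of 12. Of 5 related ligands of the IL-10 family tested, 0 passed and 0 had a mean above 0, with a median of -0.36, and 1 of them was well above background in all 12 channels. Of 3 type I and II interferon ligands tested 0 passed, with a median of 0.10. Of 6 negative regulators SOCS3 was the one that passed, with a median of 0.08.

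**Figure D4:**
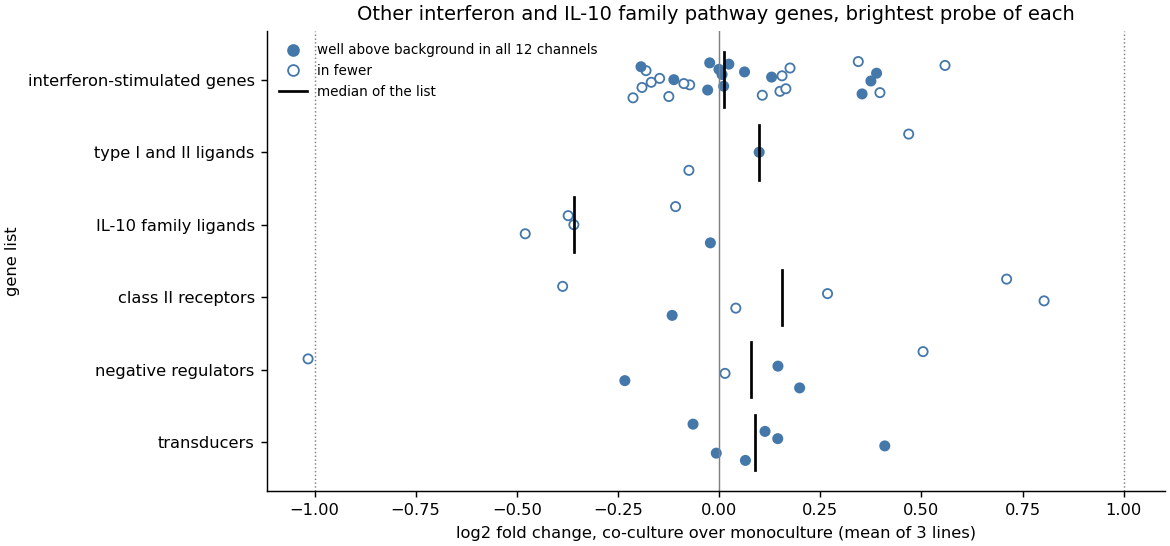
Log2 fold change of co-culture over monoculture (mean of 3 lines) for the brightest probe of each further pathway gene, by list. Filled points are well above background in all 12 channels, black bars are list medians and dotted lines mark a 2-fold difference; SOCS3 at -1.02 is the one point beyond them.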

How the data were processed

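For each array the authors deposited a Feature Extraction scan (10.10.1.1 in the file headers, 10.7.3.1 in the submitters' processing notes), with an intensity per spot and dye, the background used, flags and a processed intensity that is background-subtracted and adjusted between dyes. They also deposited a table of log10 ratios, which equals the log10 ratio in the scanner output turned to co-culture over monoculture (largest difference 4.997e-06). From these files, processed signals were scaled to a common median per channel, outlier spots and controls were left out, probes whose intensity never exceeded 10 were dropped, and log2 ratios were averaged over spots and over the dye-swap. Probes with a ratio on every array were tested in limma 3.58.1 (R 4.3.3; lmFit, eBayes with a trend in mean intensity, Benjamini-Hochberg over 40699 probes). The plots were drawn with matplotlib 3.10.9.

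The number of arrays limits the precision. The labels number the arrays of a line by dye orientation. Arrays with the same number correlated at -0.22, 0.03 and 0.40 (co-culture in Cy5) and at 0.47, 0.51 and 0.61 (co-culture in Cy3). Number and dye orientation go together in every line, so an effect of the dye cannot be told apart from another difference between the arrays. The members, the gene lists and the tests were chosen with earlier results of these data known. All member probes are described. Of the lists, JAK1, TYK2, STAT2, STAT3, IRF9, IL10RA and IL22RA1 were named whatever their values, and other genes where they passed the thresholds. A further gene of that rule is not reported here. Likeness was Pearson's r, highest 3 symbols. Coordinates are those of the files on canFam2. The scripts were tested on simulated data. Of 200 probes given a log2 change of 2 there, 39.5% passed adjusted p for co-culture, 25.5% for dye orientation and 22.5% for levels. The alternatives were other background corrections, scalings, filters, variance models, units and ratios, the methods' t-test, and each array, line or RNA sample left out.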

Additional observations from a re-analysis of the deposited data

Results flagged for a closer look

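For 3 of the 10 probes, both arrays of a line lay above 0 in some lines and both arrays of another line lay below 0. The brighter IL10RB probe had mean log2 ratios of 0.12 in P114 and 0.24 in CMT-U27 against -0.21 in CMT-U309. IFNAR1 had 0.22 in P114 against -0.21 in CMT-U27. IFNGR1 had 0.50 in CMT-U309 against -0.05 in CMT-U27. These differences between lines were not tested, since the 2 arrays of a line are a dye-swap of the same RNA.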

How the results depend on the processing

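Of 565 values of single probes under the alternatives, 468 kept their direction and side of the threshold, 48 no longer passed it, 18 newly passed it and 31 changed sign. The threshold here was the methods' unadjusted p and fold for co-culture ratios, unadjusted p for dye orientation and adjusted p for levels. Normexp with loess called 0 member probes higher and 0 pathway genes lower, and the methods' t-test called 0 pathway genes lower. Using only probes well above background in all 6 channels of a condition also called 0 and 0. That filter left out the IL28RA and SOCS3 probes before any test, so it could not have kept their calls. With the line and the replicate block on 6 arrays, 2 member probes and 3 of 55 pathway genes passed the adjusted threshold, as did 7.44% of all probes. Without a trend in the variance, 5 of the 10 probes differed between lines. With a line, array or RNA sample left out, member probes called higher numbered 0 to 1 and those past adjusted p 0 to 3 (3 without P114). Pathway genes then called higher numbered 0 to 2, those lower 0 to 1 and those past adjusted p 0 to 10 (10 without P114). Without P114, 15.7% of all probes passed adjusted p, and 2104 of 40719 were called higher and 571 lower. For dye orientation 0 to 3 probes passed unadjusted p (0 without CMT-U309) and 0 to 1 adjusted p, and for levels 5 to 9 did (5 without CMT-U27 co-culture or CMT-U309 monoculture). The log2 fold change then ran from -0.0479 to 0.18 for the brighter IL10RB probe, -0.22 to 0.0633 for IL28B, -0.0655 to 0.15 for IFNAR1, -0.054 to 0.22 for IFNGR1 and -0.12 to 0.0738 for the brighter IFNGR2 probe. Among level differences, IL28RA ran from -0.14 to 0.56 (P114 minus CMT-U27), -0.24 to 0.12 (P114 minus CMT-U309) and -0.63 to 0.0754 (CMT-U27 minus CMT-U309), and IL29 from -0.44 to 0.16 (P114 minus CMT-U309). With normexp, loess and Aquantile, P114 minus CMT-U27 was -0.061 for IL28RA, and P114 minus CMT-U309 was 0.0112 for IL29 and 0.0077 for IFNAR1. Quantile normalization gave -0.35 for IL28RA (P114 minus CMT-U27). Without scaling, P114 minus CMT-U27 was -0.25 for IL28RA and -0.13 for IL28B, and P114 minus CMT-U309 was -0.24 and -0.47 for the brighter and dimmer IL10RB probes, -0.40 for IFNGR1 and -0.53 and -0.29 for the dimmer and brighter IFNGR2 probes. Where no cause is named, the cause was not tested. The IL28RA probe was well above background in 2 of 12 channels. These lie on different arrays, so that no IL28RA ratio had both of its channels well above background.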
